A study of Mus musculus with 18 samples.

Results

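Mouse lung organoids infected with an adenovirus carrying Cre (Ad-Cre) were compared with organoids of the same sorted cells infected with an adenovirus carrying GFP (Ad-GFP), in 4 matched populations. The 8 cultures, of 18 in the series, were chosen by their labels, as every population with both an Ad-Cre and an Ad-GFP culture. The 8 tumoroid cultures and 2 Ad-Cre cultures without an Ad-GFP partner were left out. From the trachea came club cells, sorted as negative for NGFR, and basal cells, sorted as positive for it. From the distal lung came AT2 cells, negative for Sca1, and bronchioalveolar stem cells (BASCs), positive for Sca1. The BASC culture of this comparison is the mixed one, which held alveolar and bronchiolar organoids together. Per the paper, BASC organoids were picked by hand during passage, by shape under the microscope, into alveolar, bronchiolar and mixed cultures. The part of this picking in the values of the mixed BASC pair was not tested.

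All cells, controls included, came from mice carrying a human EGFR gene with the T790M and L858R changes at 1 Col1a1 locus, behind a stop cassette flanked by lox sites. The transgene is driven by the CAG promoter, which is not restricted to a cell type, once Cre has removed the cassette. Each sorted population was divided into 2 aliquots, 1 for each virus, and grown in Matrigel with mesenchymal and endothelial support cells of neonatal lung. The age and number of the mice are not given in the sources used here. Every culture gave 1 library, so a single pair has no replicate and the 4 populations stand in for replicates.

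The EGF receptor is a receptor tyrosine kinase of the ERBB family, and T790M with L858R gives a mutant that signals without its ligand through the RAS-ERK and PI3K-AKT pathways. Basal cells are the stem cells of the tracheal lining and give rise to secretory club cells and to ciliated cells. AT2 cells make surfactant and renew the alveolar surface, and BASCs, at the junction of airway and alveolus, can give rise to both airway and alveolar cells. The comparison asks what follows in each population once the stop cassette is removed. The transcript of the human transgene was not analysed here, since the counts cover mouse genes. Per the paper, RT-PCR found it induced to a similar degree in proximal and distal cells.

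Total expected counts ran from 27772660 to 97191624 per library, and mitochondrial genes took from 3 to 5.34% of them. In total 19178 of 46603 genes passed the filter on low counts. Levels are given as CPM, which are counts scaled to the library size with TMM factors, and the log2 ratio of a pair is that of its Ad-Cre over its Ad-GFP level, with a prior count of 2. The labels were checked against defining markers. Both AT2 cultures were rich in Sftpc, the surfactant protein C gene, at 28530 and 27540 CPM. The club cultures, from the NGFR-negative gate, carried Ngfr at 99.7 and 99.4 CPM and Krt5, a basal cell keratin, at 2436 and 2361 CPM, while Scgb1a1, the main club cell secretoglobin, stood at 2.61 and 4.45 CPM. In the basal cultures Ngfr stood at 96.3 and 89.2 CPM and Krt5 at 2126 and 1864 CPM. By these markers the club cultures could not be set apart from the basal ones, and "club" below names the sort. The mixed BASC cultures held Krt5 at 1674 and 1018 CPM beside Scgb1a1 at 281 and 562 CPM. Xist and the Y-linked genes Ddx3y, Eif2s3y, Kdm5d and Uty were all detected in all 8 libraries, so none of them held RNA of 1 sex alone.

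Over all genes tested, the Ad-GFP club library correlated with the Ad-GFP basal library at r = 0.986 (across genes, log2 CPM) and with its own Ad-Cre partner at 0.984. The mixed BASC Ad-GFP library correlated with the 4 tracheal libraries at 0.977 to 0.981 and with its own partner at 0.968. The mixed BASC Ad-Cre library stood nearer to the AT2 libraries, at 0.881 and 0.886, than did its Ad-GFP partner, at 0.831 and 0.834. Genes share libraries in these values, which are given as a description.

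In the fit over 4 pairs, no gene passed the test. With the population as a block, 0 of 19178 genes passed an adjusted p of 0.05 (0%) by edgeR's quasi-likelihood test with Benjamini-Hochberg adjustment, and the smallest adjusted p was 0.996. An unadjusted p under 0.05 was found for 396 genes. DESeq2's Wald test called 5 genes and limma 0. The 5 genes were Rgs5, Tnxb, Rps12-ps3 (higher) and Atp1b2 and Gm20721 (lower).

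By sign alone, 874 genes were higher in all 4 pairs (4.56% of those tested) and 1037 were lower in all 4 (5.41%). With a log2 ratio past 0.25 in every pair, 111 genes were higher (0.579%) and 101 lower (0.527%). These counts carry no test. The genes named next, in either direction, are those with the smallest unadjusted p among genes of 1 direction in all pairs, and none of them passed adjustment over all genes.

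Trp53, which encodes the p53 tumor suppressor and lies on chromosome 11 from 69580359 to 69591873 (GRCm38, plus strand), was higher with Ad-Cre in every pair. Its level was 46.1 CPM with Ad-GFP and 68.3 with Ad-Cre in the club pair, 47.4 and 81.2 in the basal pair, 54.6 and 63.6 in the AT2 pair, and 53.2 and 98.2 in the mixed BASC pair. All 4 Ad-Cre cultures lay above all 4 Ad-GFP cultures. The log2 fold change over the 4 pairs was 0.61 with a standard error of 0.12 (unadjusted p = 0.00258, adjusted p = 0.996 by edgeR). The exact sign-flip permutation test over 4 pairs gave its smallest possible two-sided p of 0.125. By RT-PCR, another measure, the paper reports only minimal change of Trp53 and of Col1a1 with the Cre virus.

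The genes that p53 switches on did not stand higher along with it. Of 30 p53 target genes 0 passed, as in the whole 4-pair fit. In all 4 pairs 1 was higher (4.56% of all genes) and 5 were lower (5.41%). Their median log2 fold change was -0.06, against -0.005 over all genes tested. Cdkn1a, the cell cycle inhibitor p21, went from 302 to 277 CPM in the club pair, from 314 to 255 in the basal pair, from 334 to 399 in the AT2 pair and from 393 to 253 in the mixed BASC pair. Mdm2, the ubiquitin ligase that degrades p53, had log2 ratios of -0.01, -0.08, -0.23 and -0.25 in the same order. The largest changes of the list were those of Dcxr (-0.39) and of Fas, a death receptor (-0.33), with unadjusted p of 0.0863 and 0.0745.

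Tnxb, which encodes the extracellular matrix protein tenascin-X, had the smallest unadjusted p of the named genes. It stood at 0.309 and 0.482 CPM in the club pair, 0.321 and 0.573 in the basal pair, 115 and 295 in the AT2 pair, and 0.562 and 1.46 in the mixed BASC pair. The level was low outside the AT2 pair, and the groups overlapped across populations while each pair went up. Its log2 fold change was 1.20 with a standard error of 0.14 (adjusted p = 0.996 by edgeR, 0.00053 by DESeq2, and 0.00053 to 1 over all alternatives). Tnxb (chromosome 17, 34670535 to 34719815) overlaps a pseudogene on the opposite strand, and it is not stated whether counting used strand.

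The other genes that were higher in all pairs moved less or were scarce in some cultures. Sdcbp2, a syntenin, had even log2 ratios, of 0.35, 0.37, 0.50 and 0.31 in club, basal, AT2 and mixed BASC. Slc26a9, an anion transporter of epithelia, had ratios from 0.22 to 0.63, Nlrp10 from 0.28 to 1.25, and Anxa10, an annexin that was nearly absent from the AT2 cultures (0.0579 and 0.11 CPM), from 0.25 to 1.25.

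Among genes that were lower in all pairs, Atp1b2, a beta subunit of the sodium-potassium pump, went from 2.47 to 1.14 CPM in the club pair, from 2.08 to 0.813 in the basal pair, from 23.0 to 12.2 in the AT2 pair and from 1.90 to 1.06 in the mixed BASC pair. The log2 ratio lay between -1.32 and -0.82 throughout, the AT2 cultures having the highest levels. The log2 fold change was -1.05 with a standard error of 0.16 (adjusted p = 0.996 by edgeR, 0.00053 by DESeq2, and 0.00053 to 1 over all alternatives). Atp1b2 lies on chromosome 11 from 69599736 to 69605942 on the minus strand next to Trp53, which it does not overlap. Hspb8, a small heat shock protein, had log2 ratios from -0.46 to -0.14, Fbln1, a fibulin of the matrix, from -0.45 to -0.13, and Cdo1, which oxidizes cysteine, from -0.98 to -0.14. The ribosomal protein gene Rpl29 was within -0.24 to -0.22 in all pairs. Rpl29 has processed pseudogenes that can share its reads.

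Gstm1, a glutathione S-transferase, went from 405 to 341 CPM in the club pair, from 351 to 238 in the basal pair, from 341 to 121 in the AT2 pair and from 346 to 128 in the mixed BASC pair. The Ad-Cre levels of the 2 distal pairs lay well under every other culture. Its log2 fold change was -0.94 with a standard error of 0.24 (unadjusted p = 0.00852, adjusted p = 0.996 by edgeR). Gstm1 belongs to a family of near-identical genes among which reads can be split. NRF2, the transcription factor of the oxidative stress response, drives Gstm1 and the other genes of its list. Of 22 NRF2 target genes 11 were lower in all pairs and 0 higher in all, against 5.41% and 4.56% of all genes, and 8 had an unadjusted p under 0.05, but 0 passed. Their median log2 ratio was -0.04, -0.12, -0.42 and -0.56 in the club, basal, AT2 and mixed BASC pairs. Members at the low end were Gsta1 (log2 fold change -1.70) and Gsta2 (-1.40), glutathione S-transferases of another class, and Aldh3a1, an aldehyde dehydrogenase (-0.97). Gclc, the catalytic subunit of glutathione synthesis, stood at 522 and 262 CPM in the AT2 pair and at 405 and 194 CPM in the mixed BASC pair. Airway secretory cells also express Gsta1, Gsta3 and Aldh3a1, and the summed level of 11 club cell markers went from 16200 to 11660 CPM in the mixed BASC pair; the part of cell makeup in these values was not tested.

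**Figure D1:**
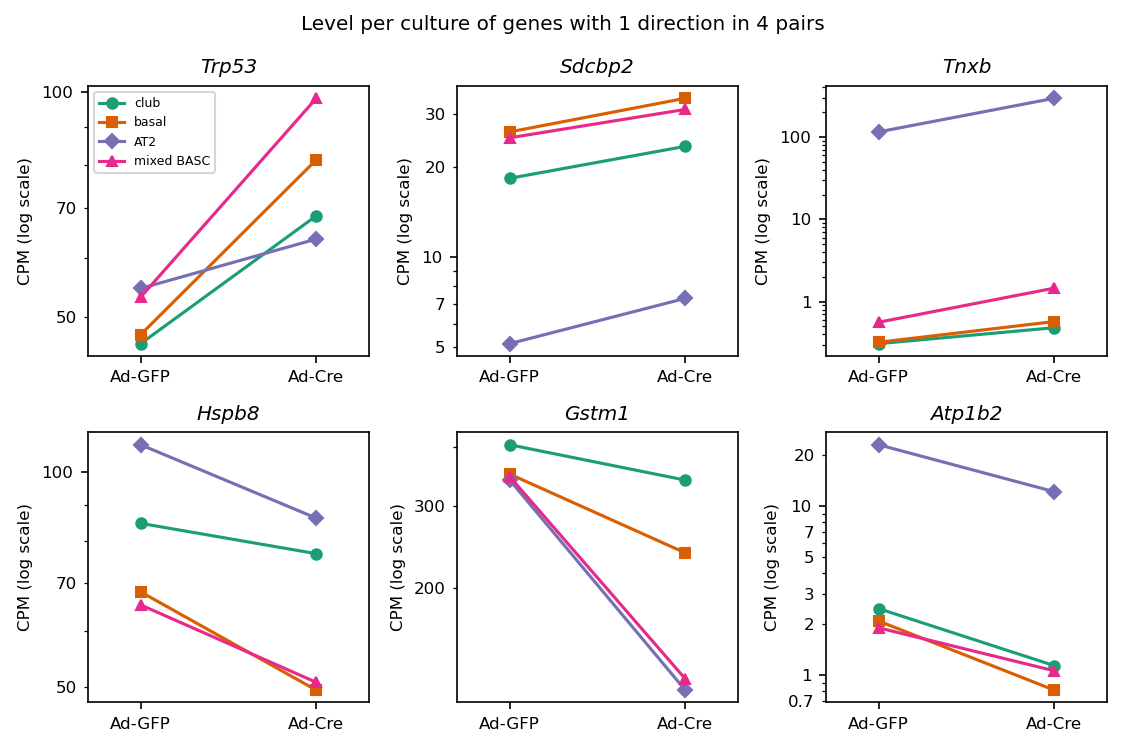
Level in each culture (CPM, log scale) of 6 genes, with the Ad-GFP and the Ad-Cre culture of a population joined by a line. Trp53, Sdcbp2 and Tnxb were higher and Hspb8, Gstm1 and Atp1b2 lower in all 4 pairs, and none passed adjustment in the edgeR fit.

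The knock-in locus and the mouse receptor showed no common direction. Col1a1, the collagen gene that hosts the transgene and that fibroblasts express strongly, went from 1138 to 935 CPM in the club pair, from 998 to 1018 in the basal pair, from 1867 to 2631 in the AT2 pair and from 884 to 1908 in the mixed BASC pair. It was thus lower in the club pair and highest relative to its partner in the mixed BASC pair, and its log2 fold change over the pairs was 0.34 with a standard error of 0.25 (adjusted p = 0.996 by edgeR). Mouse Egfr had log2 ratios of -0.04, -0.02, -0.65 and 0.41 in the same order. Of 15 ERBB receptor and EGF-family ligand genes tested 0 passed, as did 0 of all 19178 genes in the 4-pair fit, so this count says nothing particular about them.

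Genes that respond to ERK, the kinase downstream of EGFR and RAS, had unlike medians in the 4 pairs. Of 28 ERK feedback and target genes, 27 were higher with Ad-Cre in the mixed BASC pair, 8 of them past 2-fold (against 6.7% of all genes), with a median log2 ratio of 0.80. In the AT2 pair 24 of 28 were lower, with a median of -0.22, and in the club and basal pairs the medians were 0.02 and 0.07. Spry4, a feedback inhibitor of the pathway, went from 3.84 to 5.67 CPM in club, from 5.39 to 7.02 in basal, from 33.6 to 33.2 in AT2 and from 5.94 to 12.5 in mixed BASC. Etv1, an ETS transcription factor, went from 8.76 to 18.5 CPM in mixed BASC and from 17.6 to 13.9 in AT2. The ligand genes Areg (amphiregulin), Ereg (epiregulin) and Hbegf had log2 ratios of 1.20, 1.01 and 0.96 in mixed BASC. When the mixed BASC effect was tested against that of the other 3 pairs, 1 of the 28 passed, against 0.876% of all genes called higher. This was Emp1, a membrane protein, which rose from 258 to 577 CPM (adjusted p = 0.0486 by edgeR).

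Within single pairs, the number of genes past 2-fold has no test, since each pair is 1 culture against 1. The club pair had 632 genes higher (3.3%) and 826 lower (4.31%), and the basal pair 533 higher (2.78%) and 297 lower (1.55%). The AT2 pair had 768 higher (4%) and 655 lower (3.42%). The mixed BASC pair had the most, 1284 higher (6.7%) and 2059 lower (10.7%). With at least 10 counts required in every sample the totals were 272, 152, 604 and 1703.

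**Figure D2:**
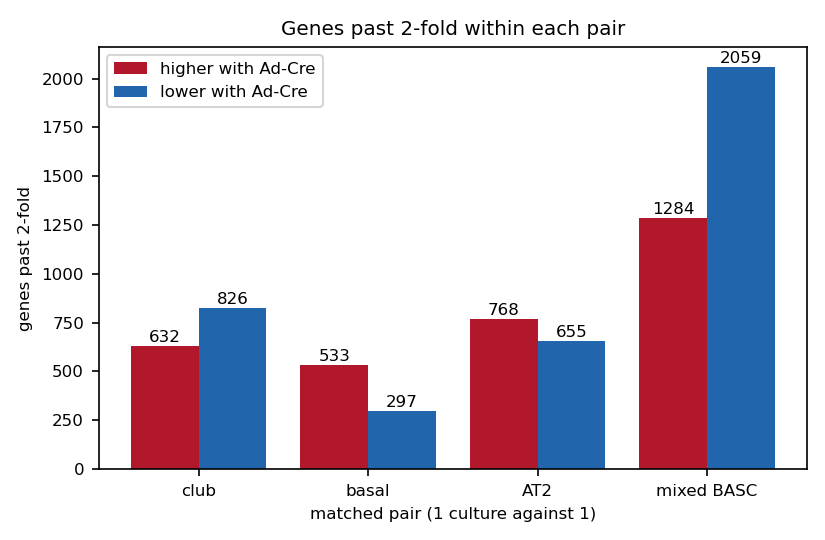
Number of genes past 2-fold in each matched pair (y axis), of 19178 tested, higher (red) or lower (blue) with Ad-Cre. The basal pair had the fewest, 533 and 297, and the mixed BASC pair the most, 1284 and 2059.

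Whether the effect of Ad-Cre differed between populations was tested for each pair against the mean of the other 3, and for the distal against the tracheal pairs. A single pair is assumed to vary like the others in such a fit. In the distal against tracheal test 0 genes passed (0%), with 890 at an unadjusted p under 0.05, 137 by DESeq2 and 0 by limma. Without the AT2 pair this test becomes that of the mixed BASC pair and called 1440 genes, and without the mixed BASC pair it called 382.

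The genes with the smallest p in the regional test were higher or lower in both distal pairs, and none passed. Penk, which encodes the opioid peptide precursor proenkephalin, went from 114 to 392 CPM in AT2 and from 4.08 to 12.4 in mixed BASC, while the club pair stood at 4.70 and 4.99 and the basal pair at 5.19 and 5.41 (difference 1.62 on the log2 scale, standard error 0.16, adjusted p = 0.296 by edgeR). Padi2, which converts arginine to citrulline in proteins, went from 0.824 to 4.25 CPM in AT2 and from 3.42 to 25.3 in mixed BASC. Rflnb and the urea transporter Slc14a1 were also higher in both distal Ad-Cre cultures, with log2 ratios from 0.90 to 1.22. Dmkn, a secreted epithelial protein, went from 268 to 61.6 CPM in AT2 and from 40.6 to 11.3 in mixed BASC, and stayed between 15.4 and 16 CPM in the trachea. Hydin, Adgb and Cyp4a12a, the first a part of the motile cilium, were under 0.2 CPM in both AT2 cultures, so their values rest on the mixed BASC pair.

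The AT2 pair differed from the others in interferon-stimulated genes. Interferons released by cells that sense foreign nucleic acid switch on a set of antiviral genes, many of which carry a short element in their promoters (the interferon-stimulated response element, ISRE). Of 19178 genes, 11 had a higher log2 ratio in the AT2 pair than in the other 3 (0.0574%) and 1 a lower one (0.00521%), all at an adjusted p of 0.0452 by edgeR. Of the 11, Ifit1, Ifit3b, Isg15, Mx1, Mx2, Oas1a, Oasl2, Rtp4 and Usp18 are known interferon-stimulated genes, as is Apol9b, and Scgb3a2 is a secretoglobin of airway secretory cells. The gene lower in the AT2 pair was Csf3, which encodes the granulocyte growth factor G-CSF.

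The ISRE core, here GAAA, any 2 bases and GAAA again, or TTTC, any 2 bases and TTTC on the other strand, was searched in RefSeq promoters (250 bases before to 50 after the start, GRCm38.p6), of which 6 of the 12 genes had one or more. Of these, Ifit1, Ifit3b, Isg15, Oas1a and Apol9b held the core and Oasl2 did not (6 of 7 windows, 85.7%), against 3.03% of the windows of all genes tested. Of 26 interferon-stimulated genes of the list with a promoter, 14 held it. Matches may overlap each other, and a match is a string of letters, not a shown binding site. The 150 bases before the start are printed for 3 genes with large effects, in the direction of transcription and with the cores in capitals, so that the spacing of the repeats can be seen.
Ifit1, chr19:34640739-34640888, plus strand: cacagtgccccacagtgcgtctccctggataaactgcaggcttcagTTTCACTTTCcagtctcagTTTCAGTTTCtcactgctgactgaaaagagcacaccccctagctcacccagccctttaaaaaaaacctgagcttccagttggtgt
Isg15, chr4:156200819-156200968, minus strand: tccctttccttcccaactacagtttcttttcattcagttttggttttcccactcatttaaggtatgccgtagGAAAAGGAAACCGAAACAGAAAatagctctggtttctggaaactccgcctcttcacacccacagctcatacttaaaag
Oas1a, chr5:120907526-120907675, minus strand: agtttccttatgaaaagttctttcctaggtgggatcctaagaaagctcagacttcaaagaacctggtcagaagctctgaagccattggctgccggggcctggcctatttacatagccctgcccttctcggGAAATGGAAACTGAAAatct
The cores of Ifit1 began at -104 and -85, those of Isg15 at -78, -72 and -66 in an unbroken run, and those of Oas1a at -20 and -14.

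The levels of these genes show where the difference lay. Ifit1, an antiviral RNA-binding protein (chromosome 19, 34640871 to 34650009), stood at 181 and 190 CPM in the club pair, 180 and 146 in the basal pair, 6.68 and 83.3 in the AT2 pair, and 131 and 103 in the mixed BASC pair. The AT2 Ad-GFP culture was far below all others, and the AT2 Ad-Cre culture rose 12.4-fold over it but remained below the 6 other cultures. The AT2 effect exceeded that of the other pairs by 3.84 on the log2 scale, with a standard error of 0.25. Isg15, a ubiquitin-like protein, stood at 144 and 138, 141 and 114, 4.60 and 44.8, and 83.6 and 93.2 CPM in the same order, which gives the same picture. Oas2, which makes the oligoadenylates that activate RNase L, went from 0.81 to 10.4 CPM in AT2 and lay between 110 and 175 elsewhere (adjusted p = 0.0557). Mx1 and Mx2, Ifit3 and Ifit3b, and the Oas genes are close relatives among which reads can be split.

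Over the list, 35 of 35 interferon-stimulated genes were tested, and 27 were past 2-fold higher in the AT2 pair, where 4% of all genes were, while 0 were in any other pair. The median log2 ratio was 1.73 in AT2 and -0.11, -0.10 and -0.05 in club, basal and mixed BASC. In the AT2 contrast 8 of the 35 passed, all higher, against 0.0574% of all genes called higher. Irf7, a transcription factor of the interferon response, went from 8.04 to 50.8 CPM in the AT2 pair, with an adjusted p of 0.0535. The summed level of the list was 537 CPM in AT2 Ad-GFP and 1656 in AT2 Ad-Cre, against 2783 to 3845 in the 6 other cultures. The AT2 pair was also the 1 pair whose libraries carry different lane numbers in the names of the deposited tables (7 and 8), so lane and virus cannot be told apart within it. Mitochondrial genes took 3% of counts in AT2 Ad-GFP and 5.34% in AT2 Ad-Cre, the lowest and the highest share of the 8 libraries, and the part of this in the values of the pair was not tested.

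Markers of airway cells went both ways in the AT2 pair. Of 14 ciliated markers 6 were higher and 8 lower. Of 11 club cell markers 7 were higher and 4 lower, and 4 were past 2-fold higher (4% of all genes). Of these 11, 1 passed the contrast, against 0.0574% of all genes called higher. Scgb3a2, the one that passed, rose from 0.94 to 19.3 CPM, against 455 to 953 CPM in the 6 other cultures. Ltf, which encodes lactoferrin, went from 13.7 to 176 CPM, against 7942 to 12290 in the others (adjusted p = 0.185), and Scgb1a1 from 13.2 to 310 CPM (0.229). Of 11 basal cell markers, 5 were past 2-fold higher (4% of all genes) and 2 past 2-fold lower (3.42%) in AT2. Krt5 went from 1.68 to 6.59 CPM and Ngfr from 0.13 to 0.508, while Krt17 went from 0.564 to 0.177. The summed level of the 11 basal markers was 937 and 779 CPM in the AT2 pair and from 3273 to 6440 in the others, and that of the 11 club markers 1127 and 1446 CPM in AT2 and from 11510 to 16200 in the others. In bulk cultures, fewer cells of a type and less RNA per cell cannot be told apart, and the part of airway cells in the interferon values was not tested. Mest, an imprinted gene, went from 5.61 to 56.4 CPM in AT2 and was under 2 CPM in all other cultures (adjusted p = 0.124); it overlaps Copg2 on the opposite strand.

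Genes of neutrophil attraction and inflammation were lower in the AT2 Ad-Cre culture. Csf3 stood at 82.9 and 109 CPM in club, 81.0 and 92.0 in basal, 49.1 and 6.45 in AT2, and 74.6 and 76.4 in mixed BASC, so that the AT2 Ad-Cre culture lay apart. Its AT2 effect was lower by 3.13 on the log2 scale than that of the other pairs (-3.13, standard error 0.21, adjusted p = 0.0452 by edgeR). Of 22 genes tested in the list, 22 were lower in AT2 and 14 past 2-fold (3.42% of all genes), with a median log2 ratio of -1.14. The chemokine genes Cxcl1 (187 to 30.3 CPM), Cxcl2 (24.6 to 3.78), Cxcl3 (69.2 to 6.83) and Cxcl5 (700 to 136) and the cytokine gene Il6 (29.7 to 5.92) were among them, with adjusted p of 0.0768, 0.0709, 0.278, 0.124 and 0.224. In the club and mixed BASC pairs 20 and 19 of the 22 were higher, with medians of 0.35 and 0.56. Vnn3, a pantetheinase, and Rcan2, an inhibitor of calcineurin, went from 16.9 to 3.31 and from 29.6 to 6.87 CPM in AT2 (adjusted p = 0.154 and 0.352). AT2 cell markers were lower too, 12 of 12, as were 9887 of all 19178 genes. They ran from Sftpc (28530 to 27540 CPM) to Chil1 (2986 to 1094), with a median log2 ratio of -0.57. Of the 12, 3 were past 2-fold lower (3.42% of all genes) and 0 passed the contrast.

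The calls of the AT2 pair varied with the pairs set against it. Without the club or without the basal pair 0 genes passed, with an adjusted p for Ifit1 of 0.329 and 0.347 (1e-29 to 0.347 over all alternatives), and without the mixed BASC pair 382 passed. The difference of Ifit1 was 3.97 and 3.78 on the log2 scale without the club and the basal pair, all 12 genes kept their direction, and the cause of the lost calls was not tested.

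**Figure D3:**
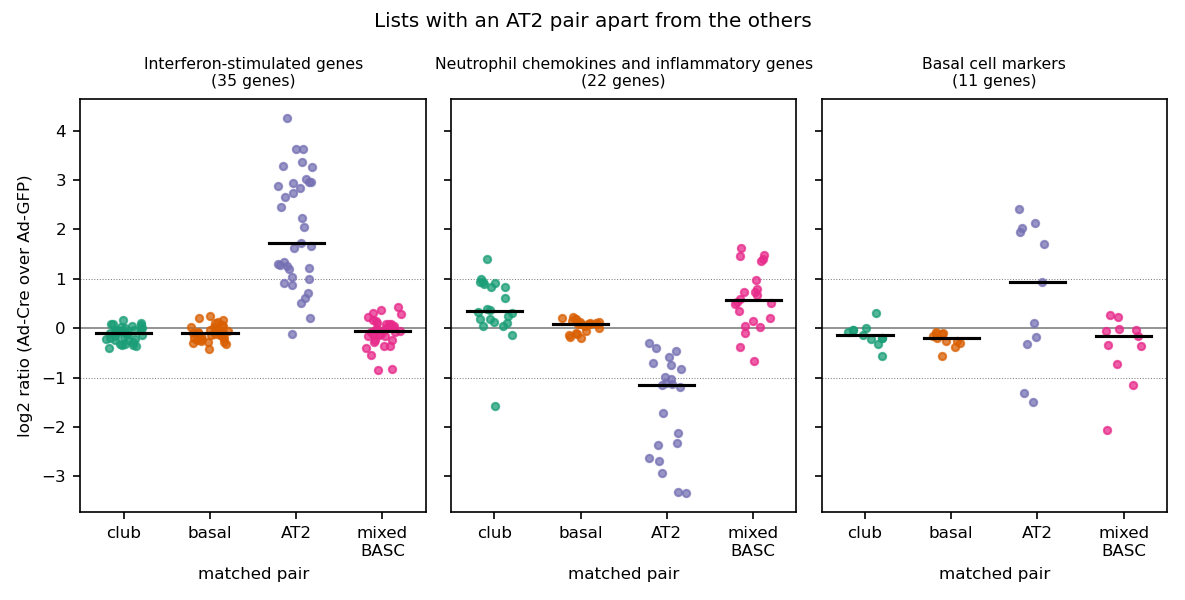
Log2 ratio of Ad-Cre over Ad-GFP (y axis) of each tested gene of 3 lists in the 4 pairs, with the median as a bar and dotted lines at 2-fold. Interferon-stimulated genes had a median of 1.73 in the AT2 pair and near 0 in the other pairs, while inflammatory genes had a median of -1.14 in it.

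The mixed BASC pair differed most from the others, with lower genes of motile cilia and higher genes of matrix and AT2 cells. In its contrast with the other 3 pairs, 168 genes were higher (0.876%) and 410 lower (2.14%) by edgeR. Over the 410 lower genes the median log2 ratio was -2.14 in mixed BASC and 0.09, -0.08 and 0.03 in club, basal and AT2. Over the 168 higher genes it was 1.49, and -0.07, -0.01 and -0.10 in the others. Both sets were chosen by this contrast on the same ratios, so a median apart in mixed BASC alone follows from the choice. Single genes varied: the 410 ran from -0.535 to 4.733 in club and from -1.406 to 5.165 in basal.

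Ciliated cells carry motile cilia, built from dynein arms, radial spokes and other axonemal parts under the control of the transcription factor FOXJ1. All 14 ciliated cell markers were past 2-fold lower in the mixed BASC pair, where 10.7% of all genes were, with log2 ratios from -2.75 to -1.32. Of the 14, 10 passed the contrast, against 2.14% of all genes called lower. Foxj1 (chromosome 11, 116330704 to 116335399) stood at 261 and 295 CPM in club, 298 and 254 in basal, 1.43 and 1.85 in AT2, and 499 and 138 in mixed BASC. The mixed BASC Ad-GFP culture was the highest of the 8 and its Ad-Cre partner lay below the tracheal cultures. Its effect was lower by 1.93 on the log2 scale (-1.93) than in the other pairs (standard error 0.26, adjusted p = 0.0316 by edgeR). Mcidas and Ccno, regulators that make the many centrioles of these cells, fell from 38.4 to 5.66 and from 90.5 to 17.1 CPM (adjusted p = 0.0269 and 0.0308), and Deup1, which builds the deuterosome, fell from 84.8 to 10.5 CPM (0.0259). Structural genes did so as well: Hydin fell from 73.6 to 12 CPM, and the outer dynein heavy chain gene Dnah9 fell from 84.6 to 18.1. Dnah5 went from 108 to 16.1 CPM (adjusted p = 0.0563). In the club, basal and AT2 pairs 0, 0 and 2 of the 14 were past 2-fold lower, those 2 at under 0.2 CPM in AT2.

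RFX factors act with FOXJ1 on cilium genes through the X-box. A short part of it, GTTGCCAT or ATGGCAAC on the other strand, was in 27 of 389 promoter windows of the 410 lower genes (6.94%), against 1.22% of the windows of all genes tested. Among the 14 ciliated markers, 1 of 11 genes with a promoter held it. The match is a description of the letters only.

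The other named genes that fell in the mixed BASC pair, and further ones picked from the calls, have varied roles. Adh7, an alcohol dehydrogenase that oxidizes retinol, stood at 196 and 156 CPM in club, 147 and 114 in basal, 1.92 and 1.77 in AT2, and 235 and 25.9 in mixed BASC (difference -2.89, standard error 0.19, adjusted p = 0.0258). Timp4, an inhibitor of metalloproteinases, fell from 12.5 to 1.25 CPM, and Fam216b fell from 26.0 to 2.74 CPM (both 0.0258). Agr2, a chaperone of mucin folding, fell from 132 to 48.2 CPM (0.0316). Aldh3a1 and Gsta1 fell from 125 to 27.6 and from 10.0 to 0.305 CPM (0.0316 and 0.0297). Of 11 club cell markers 4 were past 2-fold lower (10.7% of all genes) and 0 passed, Scgb1a1 being higher (281 to 562 CPM). Of 11 basal cell markers 9 were lower and 0 passed, with a median log2 ratio of -0.15, Krt15 going from 437 to 105 CPM and Krt14 from 783 to 756. Timp4 and Adh7 each overlap a gene on the opposite strand.

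Genes of AT2 cells were higher in the mixed BASC Ad-Cre culture. Of 11 AT1 cell markers there, 7 were higher, 4 of them past 2-fold (6.7% of all genes), 4 were lower, and 0 passed. Sftpc went from 98.0 to 669 CPM, Sftpb from 331 to 1246 and Lamp3, of the lamellar body membrane, from 17.2 to 85.4, far under their levels in the AT2 cultures (28530, 10210 and 2340 CPM with Ad-GFP). All 12 AT2 markers had a ratio above 0, 7 of them past 2-fold (6.7% of all genes), with a median of 1.31. Of the 12, 1 passed the contrast, against 0.876% of all genes called higher. This was Napsa, a protease that processes surfactant protein B, which rose from 12.8 to 84.9 CPM (adjusted p = 0.0337). Nkd1, an inhibitor of Wnt signaling that was abundant in AT2 cultures (523 and 472 CPM), rose from 2.56 to 16.8 CPM (0.0258). Of 7 class II histocompatibility genes, which present antigen and which AT2 cells also express, 7 were higher and 3 passed, against 0.876% of all genes. Cd74, the invariant chain, rose from 105 to 281 CPM, H2-Ab1 from 12 to 38.1 and H2-DMb1 from 5.69 to 14.4 (adjusted p = 0.0315, 0.0258 and 0.0276). In the AT2 pair these genes stood almost level, Cd74 at 1082 and 1080 CPM.

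Matrix and mesenchymal genes were higher as well. Of 28 EMT and matrix genes 28 had a ratio above 0 in mixed BASC, 14 past 2-fold (6.7% of all genes), with a median of 1.01, and 7 passed (0.876% of all genes), against medians of -0.04, 0.05 and 0.02 in club, basal and AT2. Fn1, which encodes fibronectin, stood at 1798 and 1397 CPM in club, 1369 and 1601 in basal, 1970 and 1821 in AT2, and 1014 and 3426 in mixed BASC, where the Ad-GFP culture was the lowest and the Ad-Cre culture the highest of all 8 (difference 1.84, standard error 0.30, adjusted p = 0.0429). Tnc, tenascin-C, rose from 467 to 1204 CPM, Itga5, a fibronectin receptor subunit, from 62.4 to 141, and Inhba, the activin A subunit, from 19.6 to 60.9 (adjusted p = 0.0379, 0.0323 and 0.0332). Markers of fibroblasts and smooth muscle moved with them: 17 of 18 were higher, 9 past 2-fold, and Col3a1, Pdgfrb and Fn1 passed, against the same 6.7% and 0.876% of all genes, Col3a1 rising from 336 to 810 CPM. The summed level of the 18 markers was 4086 and 9894 CPM in the mixed BASC pair, 14770 and 15340 in AT2, and from 4462 to 5072 in the trachea. Support cells were plated with the sorted cells, and their part in the matrix values was not tested.

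The remaining named genes of the mixed BASC pair were Shisa6, which rose from 1.47 to 11.8 CPM (adjusted p = 0.0316), Bst1, a cell surface ADP-ribosyl cyclase, which rose from 14.8 to 76.4 (0.0258), and Flt1, the VEGF receptor 1, which rose from 4.45 to 29.5 (0.0258). Flt1 and Esam (0.893 to 4.99 CPM, 0.0258) are also on the endothelial list, whose defining members Cdh5, Kdr, Tie1, Cldn5 and Emcn were under the filter, with a highest level of 0.321 CPM, scaled to the library total, in any culture. Pecam1 stood at 0.48 and 0.273 CPM in the mixed BASC pair, and the median of 7 endothelial genes tested was -0.74 there. Ankrd1, a target of YAP, rose from 11.5 to 55.0 CPM (0.0258), and 22 of 23 TGF-beta and YAP targets had a ratio above 0 in this pair, with a median of 0.53 and 2 past the contrast (0.876% of all genes).

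The calls of the mixed BASC pair also varied with the pairs set against it. Without the club pair 1 gene passed, without the basal pair 327 and without the AT2 pair 1440, and limma called 136 where edgeR called 578.

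**Figure D4:**
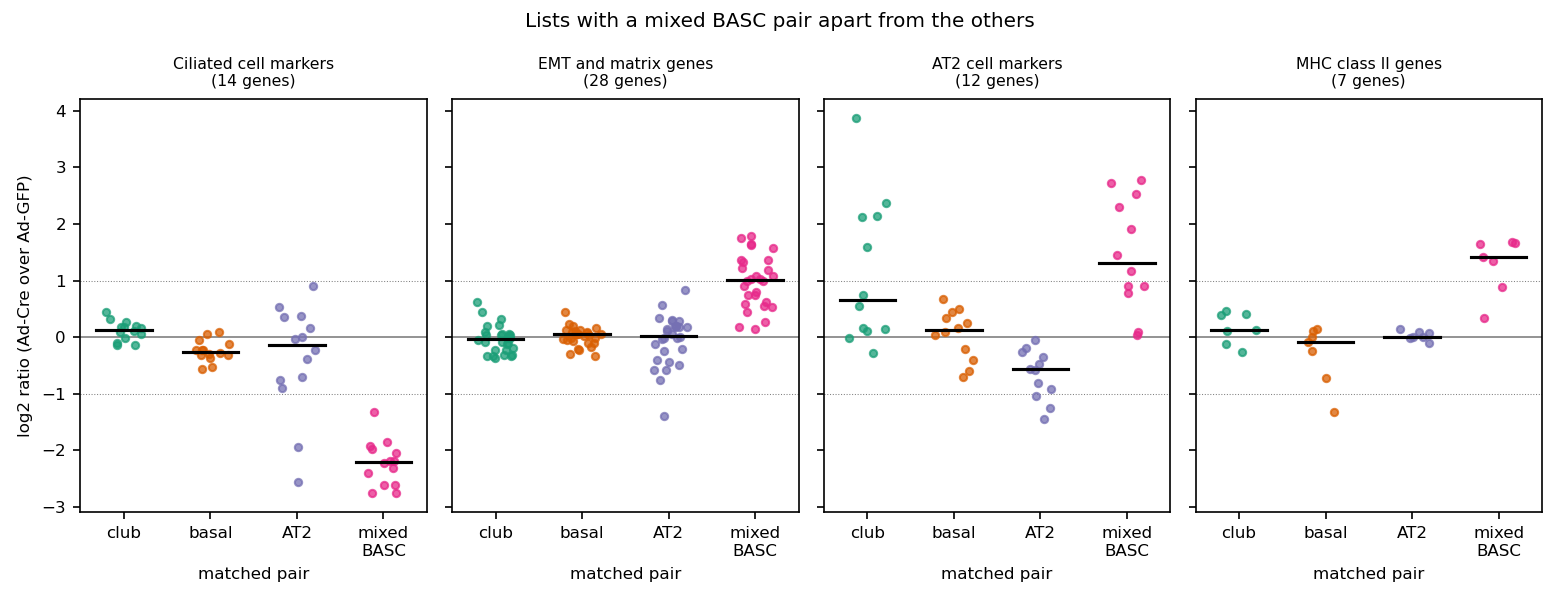
Log2 ratio of Ad-Cre over Ad-GFP (y axis) of each tested gene of 4 lists in the 4 pairs, with the median as a bar and dotted lines at 2-fold. In the mixed BASC pair 14 ciliated markers lay between -2.75 and -1.32, while the medians of EMT and matrix, AT2 and class II genes were 1.01, 1.31 and 1.42.

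The club pair gave 0 genes in its contrast (0%), with 765 at an unadjusted p under 0.05, 5 by DESeq2 and 0 by limma. The genes with the largest ratios particular to it had an adjusted p of 0.892. Atf3, a transcription factor, stood at 126 and 61.8 CPM in club, 55.0 and 57.7 in basal, 64.1 and 49.0 in AT2, and 63.0 and 48.2 in mixed BASC, so that the club Ad-GFP culture was the one that lay apart. Nr4a1, a nuclear receptor of the early response, Dusp8, a phosphatase of JNK, and Per1, a clock gene, had log2 ratios of -0.90, -0.99 and -0.88 in club and between -0.29 and 0.46 elsewhere. Sprr2f, a precursor of the cornified envelope with close paralogs, went from 21.3 to 44 CPM in club, Tmprss11d, an airway protease, from 34.1 to 62.2, and Mab21l3 from 35.4 to 67.6.

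Cell cycle genes were higher in the club pair by small amounts. Ndc80, of the kinetochore, stood at 6.24 and 10.6 CPM in club, 10 and 8.28 in basal, 4.74 and 3.37 in AT2, and 10.8 and 7.78 in mixed BASC. Of 30 mitosis genes, 30 were higher with Ad-Cre in club, with a median log2 ratio of 0.30, and 27 of 30 S phase genes were, with a median of 0.23. None passed the club contrast, and 13 and 5 of them had an unadjusted p under 0.05 in the direction of the higher club effect, as had 315 of all 19178 genes. In the basal, AT2 and mixed BASC pairs 28, 30 and 28 of the mitosis genes were lower, with medians of -0.16, -0.32 and -0.32. The summed level of the mitosis list was 797 and 992 CPM in the club pair and 1028 and 915 in the basal pair, so the club Ad-GFP culture was the lowest of the 4 tracheal cultures. Of 12 AT2 markers 10 were higher in the club pair, 5 of them past 2-fold (3.3% of all genes), and 0 passed. Sftpc stood at 1.82 and 27.2 CPM and Lyz2, a lysozyme gene, at 64.7 and 196 CPM there, far under the AT2 levels.

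The basal pair had the fewest genes past 2-fold. Its contrast gave 0 genes (0%), with 105 at an unadjusted p under 0.05, 2 by DESeq2 and 0 by limma, and all its adjusted p values were 1. Alpl, alkaline phosphatase, went from 7.26 to 12.4 CPM, Slc15a2, a peptide transporter, from 10.8 to 16.6, Pik3c2b, a class II PI3 kinase, from 13.9 to 21.1, and Il20rb, a cytokine receptor subunit, from 4.43 to 6.52. Selenbp2 went from 16.2 to 7.33 CPM, and it has a near-identical relative that can share its reads. Polr2l, Spc25 and Zfp213 had log2 ratios from -0.61 to -0.57. In club, AT2 and mixed BASC, Polr2l stood at -0.13, -0.36 and -0.02, so it was lower in all 4 pairs. Spc25 stood at 0.48, -0.25 and -0.46 there, and Zfp213 at 0.23, 0.31 and 0.09. In the basal pair 0 of 14 ciliated, 0 of 35 interferon-stimulated and 0 of 28 ERK genes were past 2-fold in either direction. Of all genes, 2.78% were past 2-fold higher and 1.55% lower there, so counts of 0 in lists of this size lie near that share.

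**Figure D5:**
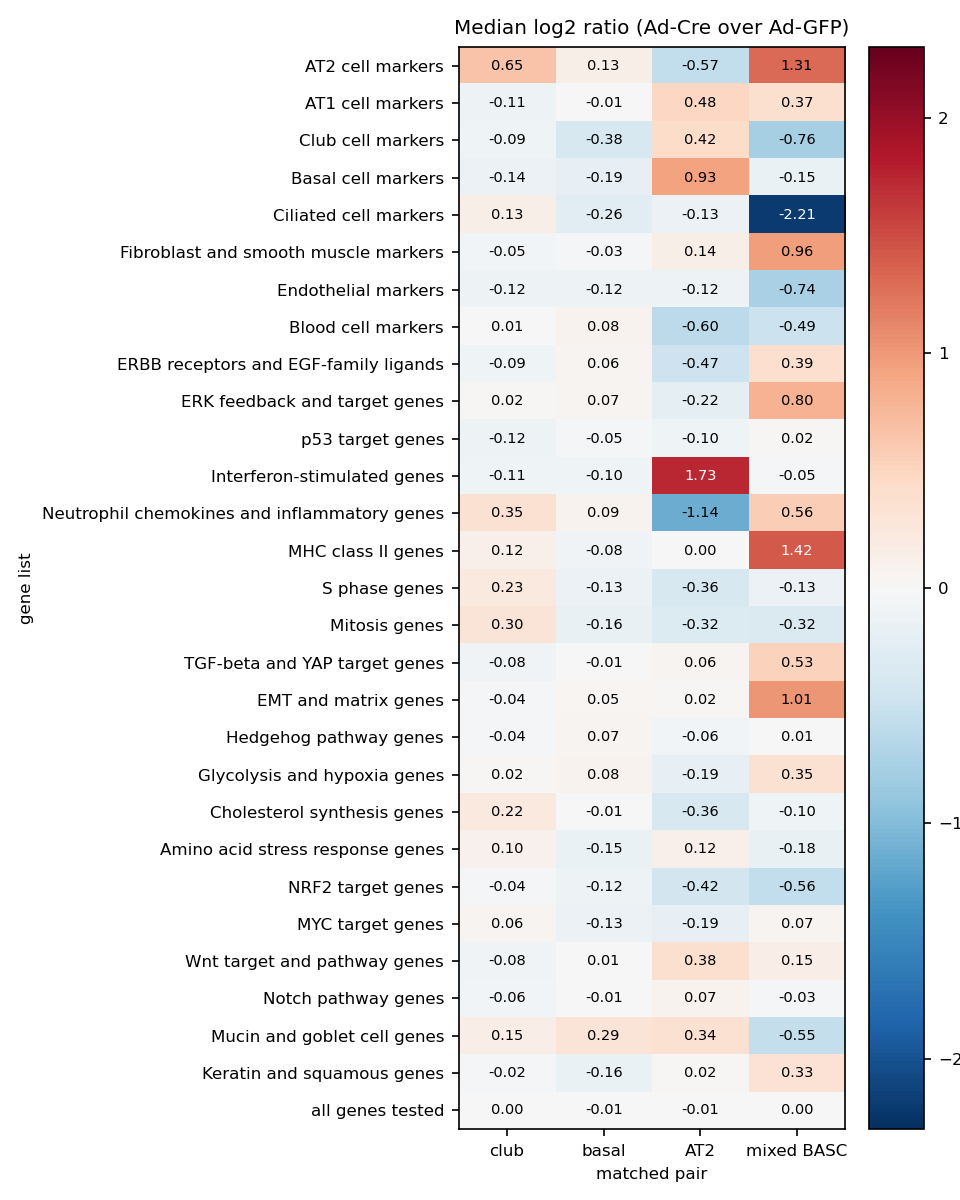
Median log2 ratio of Ad-Cre over Ad-GFP for each gene list (rows) in the 4 matched pairs (columns), with the value in each cell and the color on 1 scale. The cells farthest from 0 are ciliated markers in mixed BASC (-2.21) and interferon-stimulated genes in AT2 (1.73), and the medians over all genes tested (last row) lie within 0.011 of 0.

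Lists of further pathways gave no gene past the 4-pair test, in which 0 of all 19178 genes passed. Of 15 Hedgehog genes 3 had an unadjusted p under 0.05, as had 396 of all 19178 genes, and the median log2 fold change of the list was 0.024, with the ligand Shh at 7.85 and 19.3 CPM and the target Gli1 at 10.4 and 18.9 in the AT2 pair, and both under 1 CPM in all other cultures. Of 14 mucin and goblet cell genes tested, 4 were higher and 10 lower in mixed BASC, with a median log2 ratio of -0.55. Over the 4 pairs their median log2 fold change was 0.006. Tff2, a trefoil factor, was the member with the largest change (log2 fold change 1.56, unadjusted p = 0.00467 by edgeR). It went from 0.754 to 2.33 CPM in club, from 0.561 to 1.72 in basal and from 10.8 to 46.9 in mixed BASC. In AT2 it was at 0.116 and 0.0884. Of the glycolysis and hypoxia genes, Car9, a carbonic anhydrase induced by low oxygen, rose from 18.5 to 62.8 CPM in mixed BASC (adjusted p = 0.0443 in its contrast by edgeR) and Vegfa went from 355 to 744 (0.161). Akap5 was the AT1 marker with the largest change, from 125 to 340 CPM in AT2 and from 4.03 to 13.6 in mixed BASC, with 0.857 and 1.02 in club and 1.38 and 1.15 in basal (log2 fold change 1.02, unadjusted p = 0.0289).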

How the data were processed

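RNA sequencing of 8 mouse organoid cultures was analysed. Per the labels, the authors trimmed reads with Trimmomatic 0.39, aligned them to GRCm38 with STAR 2.6.1d and counted with RSEM 1.3.2. The deposited expected counts per gene, without normalization between samples, and the deposited TPM were used, TPM only as an alternative. Symbols and positions came from GENCODE vM21 (46091 genes matched, 512 not). Deposited files of the other 10 samples were not used here. The members, lists and rules were chosen with earlier results of these data known.

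After rounding to whole numbers, the expected counts were fitted in R 4.3.3 by edgeR 4.0.16 (filterByExpr, TMM, quasi-likelihood test, Benjamini-Hochberg adjustment over 19178 genes, threshold 0.05). Adjusted p values are from this test unless another is named, and those given beside a gene particular to 1 population or region are of that contrast. The population was a block. The pairing comes from the methods, in which each sorted population was split between the viruses, and the deviations of partners from their group means correlated at 0.632, 0.776, 0.935 and 0.293 in club, basal, AT2 and mixed BASC. Contrasts were Ad-Cre against Ad-GFP, distal minus tracheal, and each pair minus the other 3. P values measure the spread of the Ad-Cre effect between populations. In the test of 1 pair against the other 3, this is the spread among the other 3 alone, and in the regional test that within each region. For AT2 and mixed BASC, the other 3 include the club and basal pairs, which the markers did not set apart. Standard errors are the log2 change divided by the square root of the F statistic. Named genes were Trp53, Col1a1 and Egfr, the 6 with the smallest p and 1 direction in 4 pairs, the 4 with the largest ratio particular to each pair, the 4 with the smallest regional p (each per direction, above an average log2 CPM of 2 or, within a pair, a mean CPM of 5) and the 2 largest changes of each list. Further members given as examples, and called genes of the contrasts, were picked after their values were seen.

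Alternatives were DESeq2 1.42.0, its size factors in edgeR, limma 3.58.1, no filter, at least 10 counts in every sample, no block, single regions, each pair left out, prior counts of 0.5 and 5, and TPM with a pseudocount of 1. The fits were tested on simulated data, in which the change had the same size in every changed culture. Such data do not show how the fits behave where the Ad-Cre effect differs between populations.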

Additional observations from a re-analysis of the deposited data

Results flagged for a closer look

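Of 49 values tested for a pair or library that lay apart from the other 3, 7 had one; chance gives about 1 in 20 for independent values, while these share genes and libraries. These were the median log2 ratio of interferon-stimulated genes (1.73, 1.731 unrounded) and of basal cell markers (0.932) in the AT2 pair, those of ciliated markers (-2.206), class II genes (1.415), EMT and matrix genes (1.012) and endothelial markers (-0.741) in the mixed BASC pair, and the share of counts in the 20 top genes among Ad-Cre libraries, which was 15.2% (15.191) in AT2 and between 9 and 9.49% in the others. Among Ad-GFP libraries the share in the 20 top genes was 14.61% in AT2 and between 8.69 and 9.82% in the others. On the endothelial list Flt1 and Esam were higher in the mixed BASC pair.

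The tests of 1 pair against the other 3 gave 11 genes higher and 1 lower in AT2, and 168 higher and 410 lower in mixed BASC, as described above.

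In some lists both tracheal pairs had a median of one sign and both distal pairs the other. The mean of the distal medians minus that of the tracheal medians was 0.488 for AT1 markers, 0.592 for fibroblast and smooth muscle markers, 0.343 for TGF-beta and YAP targets, 0.266 for keratin and squamous genes and -0.594 for blood cell markers. These differences were not tested. Ptprc, the marker common to blood cells, was at most 1.23 CPM in any culture.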

How the results depend on the processing

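Of 430 alternative values for single genes that kept direction and side of the threshold, and 42 and 13 that gained or lost the call, 2 more turned: Col1a1 was -0.13 in the tracheal pairs only, and Egfr ran from -0.23 to 0.13 with 1 pair left out. DESeq2's Wald test called 5 genes over the 4 pairs, 137 for the region, and 5, 2, 184 and 1411 for the club, basal, AT2 and mixed BASC contrasts, and all 12 AT2 genes were among its calls. Without a filter the region gave 2, AT2 40 and mixed BASC 1279 genes. With at least 10 counts in every sample AT2 gave 20, and limma gave 20 in AT2 and 136 in mixed BASC. With 1 pair left out the calls numbered between 0 and 1440 for the region, between 0 and 382 for the AT2 contrast, and between 1 and 1440 for that of mixed BASC (327 without basal). Without the replicate block 0 genes passed in the 4-pair comparison, as with it, and it moved the list medians of AT2 markers to -0.421 and of endothelial markers to -0.062; it changed no other call. With 1 pair left out the medians ran from -0.09 to 0.404 for endothelial, from -0.035 to 0.091 for Hedgehog and from -0.038 to 0.047 for Notch genes. Genes past 2-fold with at least 10 counts in every sample were 272, 152, 604 and 1703 in club, basal, AT2 and mixed BASC, and with a prior count of 5 the basal count was 478. Genes of 1 direction past 0.25 in all pairs were 70 with that filter and 36 from TPM. The cause of these shifts was not tested. No pair is replicated, so nothing here separates the virus from the growth of 1 culture, and low genes such as Tnxb outside the AT2 pair are limited by depth.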
